A study of Mus musculus with 6 samples.

Results

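Cholesterol is built from acetyl-CoA through the mevalonate pathway, and 8 enzymes of that route, Hmgcs1, Idi1, Fdps, Fdft1, Sqle, Lss, Cyp51 and Dhcr7, were followed here in mouse mesenchymal stromal cells (MSCs). They were taken by symbol, in a choice of topic made with earlier results of these data known, and make up 8 of the 23420 genes in the count table. All 8 had enough reads to be tested. In cells, the transcription factor SREBP2 is held in the endoplasmic reticulum while sterols are plentiful and is released to the nucleus when they run low, where it switches on most enzymes of the route. The same route feeds isoprenoid side branches that make ubiquinone, dolichol and the lipid anchors of small GTPases, and dividing cells need its end product for new membrane.

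The RNA came from 6 libraries of MSCs obtained from the femoral bone marrow of female C57BL/6 mice 6 to 8 weeks old, cultured in AMEM with 10% FBS. The cells of both groups had been transduced at passage 5 with an AP2 retrovirus carrying eGFP. In the 3 libraries labelled Ctl MSC the construct was empty, and in the 3 labelled MSC-TPr it carried the thymoproteasome (TPr) subunits β1i (Psmb9), β2i (Psmb10) and β5t (Psmb11). The comparison asks what expression of these subunits does to the transcriptome of MSCs. The labels do not say whether the numbered libraries came from separate mice or cultures, so p-values measure only the spread between these libraries, which may be technical. Libraries are named below by label and number, as in Ctl MSC 1.

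Each library held 16158756 to 22158887 reads counted on genes, and 3 reads, the amount taken as detectable, were worth 0.139 to 0.181 CPM (reads scaled to library size by edgeR's TMM factors), for counting error only. In these RNA counts the transduced genes did not separate the labels. The paper checked transduction by eGFP expression and by immunoblots of the subunits, which these counts do not measure. Psmb11 had 1 to 6 reads in each library, and neither Psmb9, at 3.38, 0.801 and 0.827 CPM in Ctl MSC 1, 2 and 3, against 0.554, 1.24 and 1.21 CPM in MSC-TPr 1, 2 and 3, nor Psmb10 (27.8, 8.81 and 8.38 CPM, then 8.97, 17.3 and 15.2 CPM) was higher throughout the libraries labelled MSC-TPr. Directions given below are therefore directions between library labels. Whether any library carries the right label, those numbered 1 included, cannot be told from these counts. The first principal component, with 58.5% of the variance, placed Ctl MSC 1 (−40.9) with MSC-TPr 2 and 3 (−50.3 and −49.4), and MSC-TPr 1 (40.5) with Ctl MSC 2 and 3 (50.8 and 49.2). Results are given with and without the libraries numbered 1. Of 9 stromal markers, 8 passed the filter, while Thy1 had 0 reads in 5 libraries and 0.0604 CPM in Ctl MSC 1. Of the 8, 4 were highest in Ctl MSC 1, MSC-TPr 2 and MSC-TPr 3, the order found below in the sterol genes, among them Col1a1 (354 to 6916 CPM, 19.5-fold) and Cd44 (142 to 536 CPM). Nt5e was lower throughout the libraries labelled MSC-TPr (2.66 to 5.24 CPM) than in those labelled Ctl MSC (11.4 to 20.2 CPM), with a log2 fold change of −2.02 (SE 0.35, adjusted p = 0.079 by edgeR and 2.04e-05 by DESeq2). The 8 leukocyte markers summed to 11.2 to 17.5 CPM, with Adgre1 at 0 reads in all 6 libraries. Of the 3 tested, Cd14 (3.27 to 13.2 CPM) and Csf1r (0 to 0.835 CPM) had the order of the sterol genes and Cd68 (0.789 to 14.2 CPM) its reverse. Endothelial markers summed to 0.785 to 3.32 CPM. Of the adipocyte markers Fabp4 alone was tested (13.2 CPM in MSC-TPr 1, 50.3 to 56.8 CPM in 4 libraries and 126 CPM in Ctl MSC 1). The part of these cell types in the results below was not tested.

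The 8 genes lie on 7 chromosomes of the mouse genome build used for alignment, mm10. Positions are from the GENCODE M21 annotation, while the annotation used for counting is not given in the sources used here. Hmgcs1 is at chr13:119690379-119708260 and Idi1 at chr13:8885501-8892451, both on the plus strand. Fdps is at chr3:89093588-89101959 and Fdft1 at chr14:63145150-63179578, both on the minus strand. Sqle is at chr15:59315077-59331192 and Lss at chr10:76531588-76557138 on the plus strand, Cyp51 at chr5:4081145-4104746 on the minus strand and Dhcr7 at chr7:143823145-143848410 on the plus strand. Counts of some members can include reads of other genes, since the strand setting of the counting was not given in the sources used here. Exons of Fdft1 overlap those of Ctsb on the opposite strand over 774 bases, those of Cyp51 overlap Akap9 over 166 bases, and those of Lss overlap the antisense gene 4930483K19Rik over 381 bases. Exons of Hmgcs1 overlap Gm48342 on the opposite strand over 557 bases, and those of Idi1 overlap Gm48574 over 323 bases. On its own strand Fdps shares 1124 exon bases with Gm43738, an overlap that no strand setting would resolve. Gm48342, Gm48574, Gm43738 and the processed pseudogenes given next have no row under these names in the count table. Processed pseudogenes share long stretches of transcript with Fdps (5 copies, 91.1% to 98.9% identical), Idi1 (3 copies, among them Gm13502 with 100% identity over 684 bases) and Fdft1 (Gm6781, 97.4%), so the counts of these 3 genes are uncertain to that extent.

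Promoter sequence from RefSeq (GRCm38.p6) was matched to 5 of the 8 genes, all but Fdps, Fdft1 and Sqle, as windows from 250 bases before to 50 bases after an annotated start. The windows were searched on both strands for 3 motifs known at genes of this pathway: TCACNCCAC, the core of a sterol regulatory element bound by SREBP2, CCAAT, the box bound by NF-Y, and GGGCGG, the GC box bound by Sp1. The first was in the window of 1 of the 5 genes, Hmgcs1, as TCACCCCAC starting 137 bases before the RefSeq start, and in 1.24% of all 32851 promoter windows. The NF-Y box was in at least 1 window of 5 of 5 genes and in 37.4% of all windows. The GC box was likewise in 5 of 5 and in 35.7% of all windows, or 63.3% of the windows of genes tested here. Counts per gene are not shares of windows, since Dhcr7 had 3 windows. Its NF-Y boxes lay only in the window at chr7:143829964-143830263. A match describes letters and is not evidence of binding, and the windows lacking a motif say only that these letters were not in them. The stretches printed here run 5′ to 3′ along the gene and end before both the RefSeq and the GENCODE start, and capitals mark matches to the 3 motifs, which did not overlap. The stretch of Idi1 has none and that of Cyp51 has no NF-Y box, as those matches lie between the GENCODE and the RefSeq start. They are shown for the gene with the sterol element (Hmgcs1, chr13:119690201-119690350, plus strand), for the members with the widest and the narrowest range of levels over the libraries (Idi1, chr13:8885356-8885500, plus strand, and Lss, chr10:76531438-76531587, plus strand) and for the member with the highest level per length in 3 libraries (Cyp51, chr5:4104747-4104896, minus strand).
Hmgcs1: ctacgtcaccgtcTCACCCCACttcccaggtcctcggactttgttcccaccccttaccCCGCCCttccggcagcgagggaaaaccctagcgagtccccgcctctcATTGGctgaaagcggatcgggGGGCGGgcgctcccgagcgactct
Idi1: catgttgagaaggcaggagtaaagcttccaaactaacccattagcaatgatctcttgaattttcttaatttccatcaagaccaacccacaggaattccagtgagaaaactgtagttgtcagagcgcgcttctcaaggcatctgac
Lss: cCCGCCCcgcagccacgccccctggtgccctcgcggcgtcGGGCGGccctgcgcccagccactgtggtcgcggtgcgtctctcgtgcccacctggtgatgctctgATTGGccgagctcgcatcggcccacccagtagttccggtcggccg
Cyp51: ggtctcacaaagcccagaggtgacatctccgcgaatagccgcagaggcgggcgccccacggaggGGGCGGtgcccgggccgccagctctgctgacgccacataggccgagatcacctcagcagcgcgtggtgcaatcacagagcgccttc

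Levels of the 8 genes followed a grouping of the libraries that crossed the labels. In every one of the 8, the 3 highest libraries were Ctl MSC 1, MSC-TPr 2 and MSC-TPr 3, and the 3 lowest were Ctl MSC 2, Ctl MSC 3 and MSC-TPr 1. This order of libraries was found in 23% of all 11974 genes tested, and its reverse in 21.7%. The groups overlapped in all 8 members, where 22.6% of all genes tested did not overlap between the labels. Together the 8 genes took 0.109% of the reads on genes in Ctl MSC 1 (95% Wilson interval 0.107 to 0.11), 0.0976% in MSC-TPr 2 (0.0961 to 0.099) and 0.107% in MSC-TPr 3 (0.106 to 0.108). In Ctl MSC 2 their share was 0.0282% (0.0274 to 0.029), in Ctl MSC 3 0.0295% (0.0287 to 0.0303) and in MSC-TPr 1 0.0309% (0.0301 to 0.0317). These intervals cover counting error only. In RNA from whole cultures, fewer cells making a transcript and less of it per cell cannot be told apart.

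**Figure D1:**
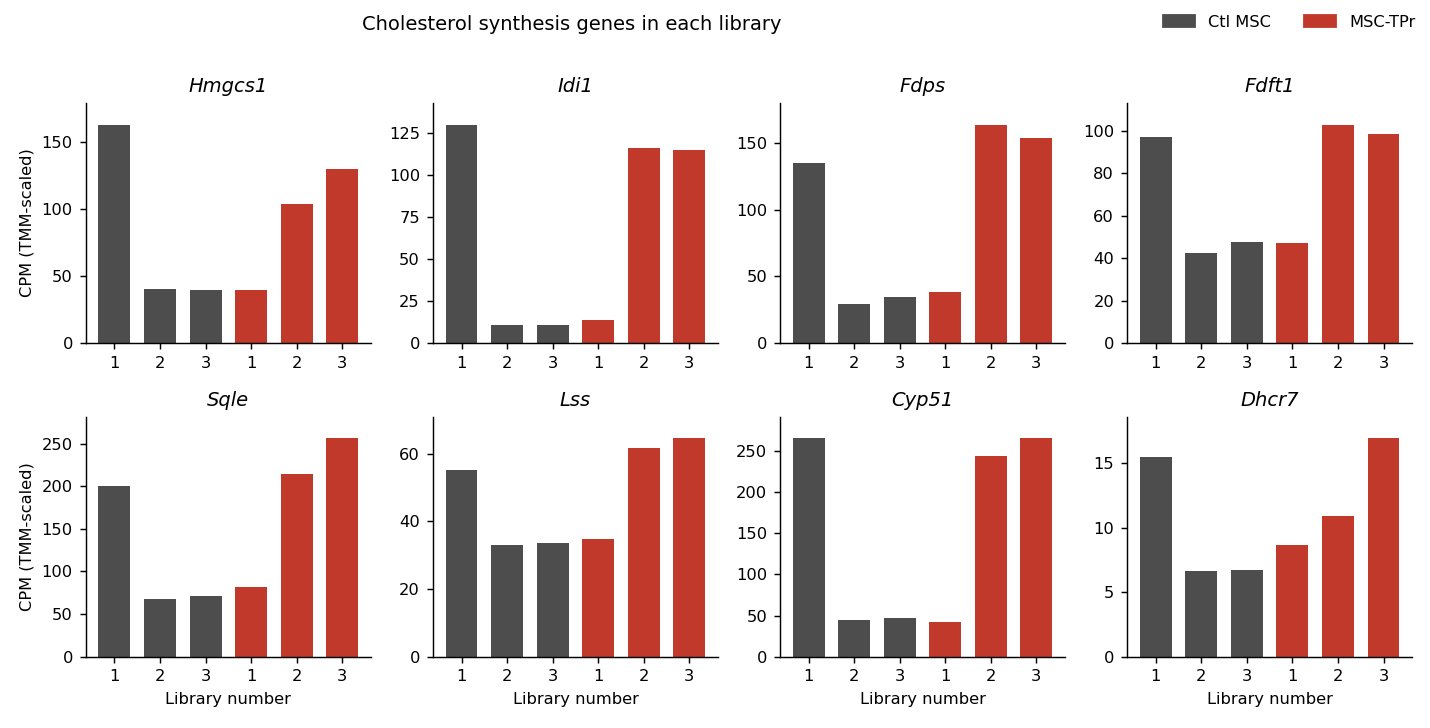
CPM (TMM-scaled, linear axis from 0, a separate scale for each gene) of the 8 cholesterol synthesis genes in the 3 libraries labelled Ctl MSC (grey) and the 3 labelled MSC-TPr (red). Each bar is 1 library and has no error bar, and in all 8 panels the bars of Ctl MSC 1, MSC-TPr 2 and MSC-TPr 3 are the 3 tallest.

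Hmgcs1 makes HMG-CoA, an early intermediate of the pathway. It reached 163, 40.6 and 39.4 CPM in Ctl MSC 1, 2 and 3, against 39.7, 104 and 130 CPM in MSC-TPr 1, 2 and 3. The 3 low libraries lay close together, while the 3 high libraries ranged more widely. Group means were 81.1 ± 71.2 CPM (SD, n = 3) under the Ctl MSC label and 91.1 ± 46.4 CPM (SD, n = 3) under the MSC-TPr label. The log2 fold change of MSC-TPr over Ctl MSC was 0.17 (SE 0.68, 95% interval −1.46 to 1.80, adjusted p = 0.928, edgeR's quasi-likelihood test with Benjamini-Hochberg adjustment over all genes tested). Its sign depended on single libraries, being −0.15 without Ctl MSC 2, −0.16 without Ctl MSC 3 and −0.16 without MSC-TPr 3.

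Idi1 and Fdps carry the isoprenoid part of the route: Idi1 interconverts the activated isoprene units, and Fdps joins them into farnesyl diphosphate, the branch point towards sterols, dolichol, ubiquinone and protein prenylation. Idi1 reached 130, 10.9 and 10.8 CPM in Ctl MSC 1, 2 and 3, against 13.5, 116 and 115 CPM in MSC-TPr 1, 2 and 3. Its highest library was 12.1-fold above its lowest, the widest range among the members over these 6 libraries. No library lay between 13.5 and 115 CPM, an 8.53-fold gap in the middle of the ordered libraries. With means of 50.6 ± 68.8 and 81.6 ± 59 CPM (SD, n = 3 each), its log2 fold change was 0.69 (SE 1.18, interval −2.13 to 3.51, adjusted p = 0.827, edgeR). Fdps reached 135, 29.5 and 34.5 CPM under the Ctl MSC label and 38.0, 164 and 154 CPM under the MSC-TPr label. The gap between its low and its high libraries was 3.54-fold. Its means were 66.2 ± 59.3 and 119 ± 70.1 CPM (SD, n = 3 each), with a log2 fold change of 0.84 (SE 0.756, interval −0.97 to 2.66, adjusted p = 0.65, edgeR), the highest point estimate of the 8.

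Fdft1 and Sqle commit the pathway to sterols, Fdft1 by joining farnesyl diphosphate into squalene and Sqle by oxidising squalene, a step that can limit the rate of the route. Fdft1 reached 97.4, 42.7 and 47.9 CPM in Ctl MSC 1, 2 and 3, against 47.2, 103 and 98.5 CPM in MSC-TPr 1, 2 and 3. The high and the low libraries each lay close together, with a 2.03-fold gap between them. Means were 62.7 ± 30.2 and 82.9 ± 30.9 CPM (SD, n = 3 each), and the log2 fold change was 0.40 (SE 0.421, interval −0.61 to 1.41, adjusted p = 0.705, edgeR). Sqle reached 200, 67.2 and 71.7 CPM under the Ctl MSC label and 81.6, 214 and 256 CPM under the MSC-TPr label. MSC-TPr 1 was the highest of its 3 low libraries, 2.45-fold below Ctl MSC 1. Sqle averaged 113 ± 75.4 and 184 ± 90.9 CPM (SD, n = 3 each), for a log2 fold change of 0.70 (SE 0.572, interval −0.67 to 2.07, adjusted p = 0.614, edgeR).

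Lss folds oxidised squalene into lanosterol, the first sterol of the route. It reached 55.2, 33.0 and 33.5 CPM in Ctl MSC 1, 2 and 3, against 34.9, 61.6 and 64.5 CPM in MSC-TPr 1, 2 and 3. Its range, 1.95-fold, was the narrowest among the members, close to the median of 1.93-fold over all genes tested. Means of 40.6 ± 12.6 and 53.7 ± 16.3 CPM (SD, n = 3 each) gave a log2 fold change of 0.40 (SE 0.316, interval −0.35 to 1.16, adjusted p = 0.599, edgeR).

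Cyp51 removes a methyl group from lanosterol, and Dhcr7 performs the last reduction of one of the final branches that lead to cholesterol. Cyp51 reached 265, 44.9 and 47.6 CPM in Ctl MSC 1, 2 and 3, against 41.7, 244 and 265 CPM in MSC-TPr 1, 2 and 3. Ctl MSC 1 and MSC-TPr 3 had the same value to 3 digits, and MSC-TPr 1 was the lowest library. Cyp51 averaged 119 ± 126 and 184 ± 123 CPM (SD, n = 3 each), with a log2 fold change of 0.62 (SE 0.912, interval −1.56 to 2.81, adjusted p = 0.8, edgeR). Dhcr7 had the fewest reads of the 8, 122 to 364 per library, and reached 15.5, 6.62 and 6.73 CPM under the Ctl MSC label and 8.69, 10.9 and 16.9 CPM under the MSC-TPr label. Here the libraries formed a graded series, with only 1.25-fold between MSC-TPr 1 and MSC-TPr 2, on either side of the middle. Its means were 9.63 ± 5.11 and 12.2 ± 4.24 CPM (SD, n = 3 each), and its log2 fold change was 0.34 (SE 0.432, interval −0.70 to 1.37, adjusted p = 0.765, edgeR).

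Over all 6 libraries, edgeR called 0 of the 8 members (called meaning an adjusted p under 0.05 with a log2 fold change of 0.5 or more, up or down), and 0 had an unadjusted p under 0.05. Across all genes tested 0.426% were called, 3 higher (0.0251%) and 48 lower (0.401%) in the libraries labelled MSC-TPr, while 816 and 985 had an unadjusted p under 0.05. DESeq2, the tool of the study, also called 0 of the 8, with no adjusted p given for Idi1, where it called 5.28% of the genes it tested. The log2 fold changes of the 8 had a median of 0.51, beside 0.012 over all genes tested, and all 8 were above 0. The widest interval, that of Idi1, ran from −2.13 to 3.51, so changes of several fold in either direction lay within it. The narrowest, that of Lss, ran from −0.35 to 1.16.

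Spread over the libraries was wider in most members than in a typical gene. The highest library exceeded the lowest by 4.15-fold in Hmgcs1, 5.56-fold in Fdps, 2.41-fold in Fdft1, 3.81-fold in Sqle, 6.36-fold in Cyp51 and 2.55-fold in Dhcr7. The median of the 8 was 3.98-fold, and Idi1 alone lay above the 95th percentile of all genes tested, 10.2-fold.

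**Figure D2:**
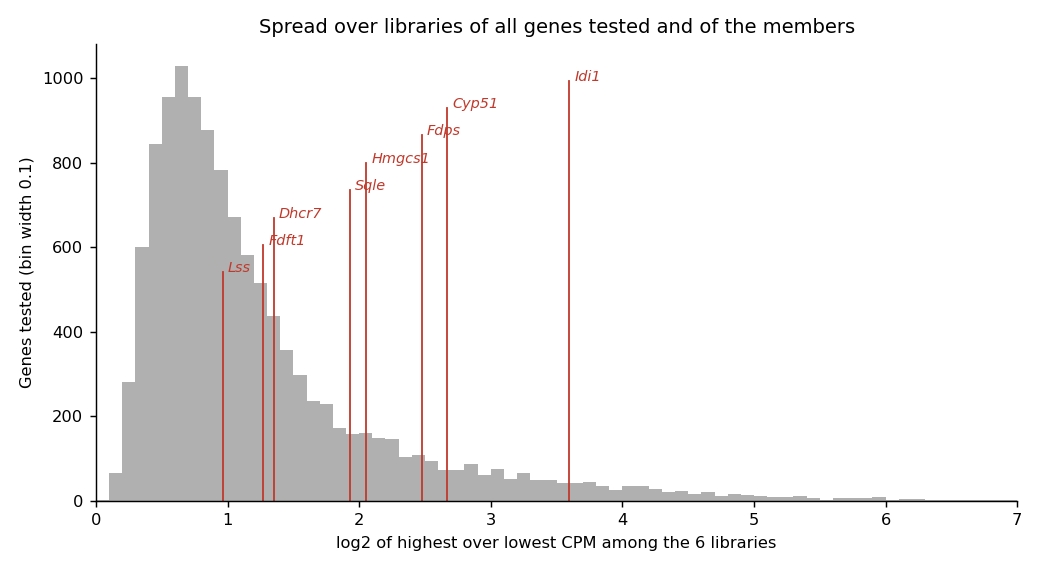
Histogram of the spread of all genes tested, as log2 of the highest over the lowest CPM among the 6 libraries (x axis) against the number of genes per bin of 0.1 (y axis), with a red line for each of the 8 members, whose heights are staggered only to separate the names. The members run from Lss (1.95-fold) near the median of all genes to Idi1 (12.1-fold), and 7 genes beyond the axis limit of 7 are not drawn.

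Per kilobase of annotated exon, the order of the members also followed the libraries. Cyp51 was the highest of the 8 in Ctl MSC 1, MSC-TPr 2 and MSC-TPr 3, at 55.3 to 60 CPM per kb. In Ctl MSC 2, Ctl MSC 3 and MSC-TPr 1, Sqle came first, at 12.1, 12.9 and 14.7 CPM per kb, with Cyp51 at 10.2, 10.8 and 9.44 CPM per kb. Idi1 moved most in rank, from rank 2 in Ctl MSC 1 (37.1 CPM per kb) and rank 4 in MSC-TPr 2 and MSC-TPr 3 to rank 6 or 7 in the other libraries (3.07 to 3.84 CPM per kb). Dhcr7 was the lowest in all 6 libraries, at 1.14 to 2.90 CPM per kb.

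The libraries numbered 1 ran against the others in all 8 members. Ctl MSC 1 exceeded MSC-TPr 1 by 9.66-fold in Idi1, 6.36-fold in Cyp51, 4.12-fold in Hmgcs1 and 3.54-fold in Fdps, and by 1.58-fold to 2.45-fold in Sqle, Fdft1, Dhcr7 and Lss. MSC-TPr 1 was lower than Ctl MSC 1 in 50.1% of all genes tested. Each of these libraries stands alone, so this difference has no replicate check.

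Without both libraries numbered 1, all 8 genes were higher under the MSC-TPr label. Idi1 rose most among the members, from 10.9 ± 0.136 CPM (SD, n = 2) under the Ctl MSC label to 116 ± 1.14 CPM (SD, n = 2) under the MSC-TPr label, for a log2 fold change of 3.41 (SE 0.121, adjusted p = 8.81e-05, edgeR). Cyp51 rose from 46.3 ± 1.90 to 255 ± 14.6 CPM (SD, n = 2 each), for a log2 fold change of 2.46 (SE 0.122, adjusted p = 0.000115, edgeR). Fdps followed with 2.32 (SE 0.133), Sqle with 1.76 (SE 0.138) and Hmgcs1 with 1.55 (SE 0.145). The smallest rises were those of Fdft1, 1.15 (SE 0.12), Dhcr7, 1.06 (SE 0.243), and Lss, 0.93 (SE 0.113). edgeR called 8 of 8 members higher, with adjusted p from 8.81e-05 to 0.0154, and DESeq2 over the same libraries also called 8 of 8. With these 4 libraries edgeR called 40% of all genes tested, 20.6% higher and 19.4% lower, and DESeq2 called 18.6% higher and 16.6% lower. The libraries left out were those that lay with the other label on the first principal component. The 4 that remain are 2 of the low and 2 of the high libraries named above. These calls are therefore not independent evidence of a difference between the labels. The common dispersion, a measure of spread within groups, was 0.124 over 6 libraries and 0.0168 over 4.

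Genes of cell division moved with the same libraries. The mean log2 CPM of 13 such genes was 6.98 in Ctl MSC 1, 7.04 in MSC-TPr 2 and 6.97 in MSC-TPr 3, and 4.26, 4.21 and 4.31 in Ctl MSC 2, Ctl MSC 3 and MSC-TPr 1. All 13 had the same 3 highest libraries as the sterol genes. The mean log2 CPM of the 8 sterol genes in the same order of libraries was 6.69, 6.59 and 6.74, and 4.81, 4.88 and 4.99. The libraries thus fell into 2 clusters on both measures, and no correlation is given across them.

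**Figure D3:**
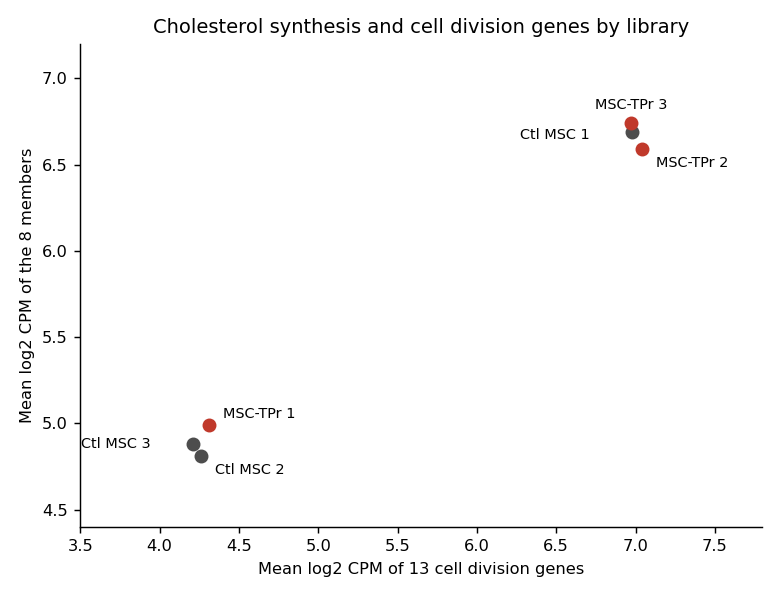
Mean log2 CPM of 13 cell division genes (x axis) against mean log2 CPM of the 8 cholesterol synthesis genes (y axis), with 1 point per library, grey for Ctl MSC and red for MSC-TPr. Ctl MSC 1, MSC-TPr 2 and MSC-TPr 3 lie at the upper right, between 6.59 and 6.74 on the y axis, and the other 3 libraries at the lower left, between 4.81 and 4.99.

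With the cell division mean as a covariate over all 6 libraries, the log2 fold changes between labels ran from −0.28 to 0.21 in the 8 genes. They were −0.28 in Hmgcs1, −0.14 in Cyp51 and −0.0053 in Idi1, all 3 positive without the covariate, and 0.035 in Fdft1, 0.087 in Dhcr7, 0.12 in Lss and 0.21 in both Fdps and Sqle. In absolute size only the value of Hmgcs1 grew, from 0.17 without the covariate. Standard errors fell to between 0.116 and 0.229, from 0.316 to 1.18 without the covariate. edgeR called 0 of 8, with adjusted p from 0.245 to 0.985 and 0 at an unadjusted p under 0.05, where 12.1% of all genes were called. Intervals were −0.23 to 0.30 in Fdft1 and −0.63 to 0.072 in Hmgcs1, so that smaller changes in either direction lay within them. The covariate was measured in the same 6 libraries, so cell division and anything else that separates the 2 clusters cannot be told apart.

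**Figure D4:**
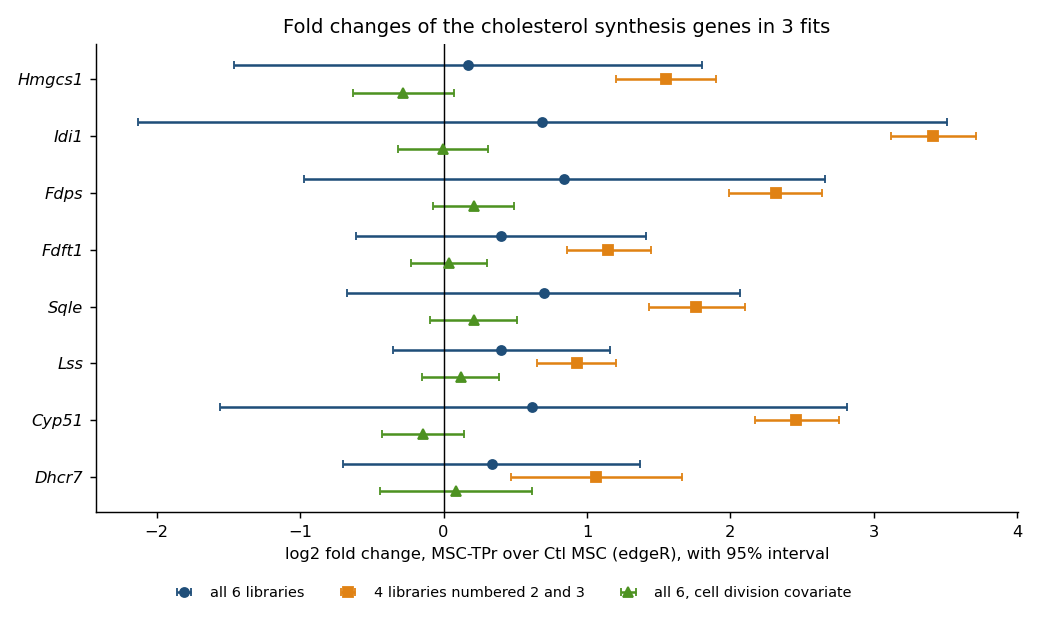
Log2 fold change of MSC-TPr over Ctl MSC (x axis, edgeR, with 95% intervals as horizontal bars) for the 8 genes in 3 fits: all 6 libraries (blue circles), the 4 libraries numbered 2 and 3 (orange squares) and all 6 with the cell division mean as a covariate (green triangles). The orange values lie between 0.93 and 3.41 with intervals above 0, while the blue and green intervals all include 0.

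Among 10886 other genes with a mean log2 CPM of at least 1, those whose log2 CPM followed the centred mean of the 8 members most closely over the 6 libraries were Ckap2l, Racgap1, Cdca3, Spc25 and Kif4 (Pearson r of 0.999 or more each). Ckap2l, for example, reached 51.5, 5.13 and 5.85 CPM in Ctl MSC 1, 2 and 3, against 6.81, 46.9 and 59.7 CPM in MSC-TPr 1, 2 and 3. The genes running most nearly opposite were Mettl17 (r = −0.999), Ncdn (−0.998), Rnf44 and Scly (−0.997 each) and Ammecr1l (−0.996). With libraries in 2 clusters such coefficients mostly record the cluster, and they are given as a description with no p.

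The other genes of the pathway were read by role from a list of 51, of which 49 were tested. Over 6 libraries edgeR called 0 of the 49, with 6 at an unadjusted p under 0.05, and DESeq2 called 1, Lipa (adjusted p = 0.0253). The 3 highest libraries were again Ctl MSC 1, MSC-TPr 2 and MSC-TPr 3 in 28 of the 49, and the reverse order held in 9. Labels did not overlap in 6 of the 49 that were lower under the MSC-TPr label and 1 that was higher. Among all genes tested, 12.1% were lower and 10.6% higher without overlap, so the genes named below for this are no more than a description. Without the libraries numbered 1, edgeR called 26 higher and 9 lower, where it called 20.6% and 19.4% of all genes tested.

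**Figure D5:**
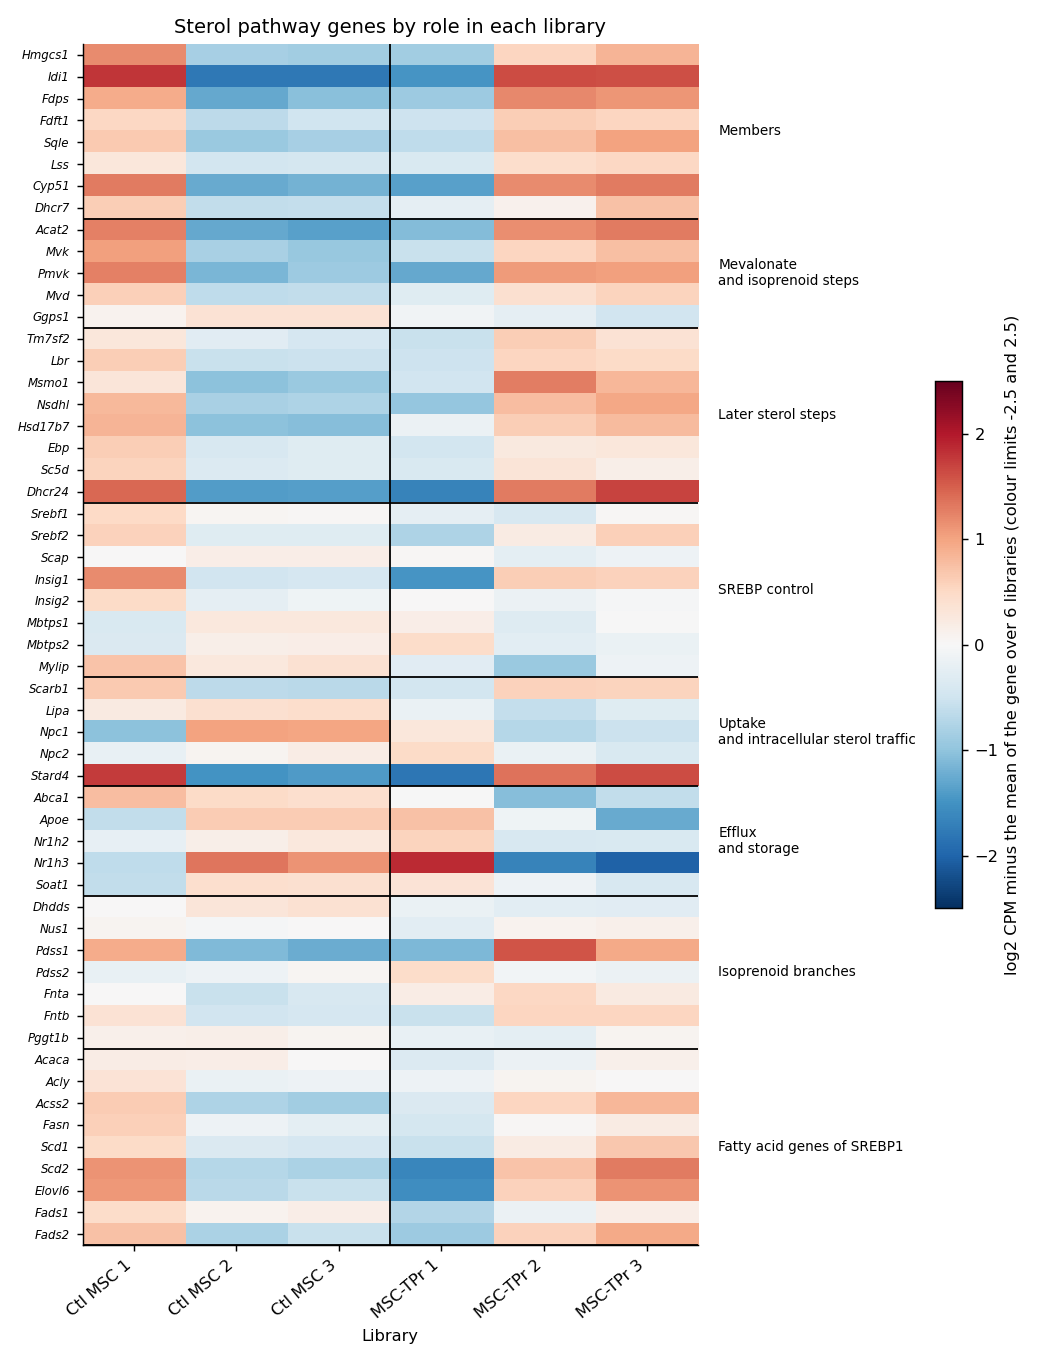
Log2 CPM of each gene minus its mean over the 6 libraries (colour, limits −2.5 and 2.5, values beyond drawn in the end colour) for the 8 members and 47 of the 49 other sterol pathway genes tested, grouped by role, with 1 column per library and a line between the labels. The synthesis steps other than Ggps1 are red in Ctl MSC 1, MSC-TPr 2 and MSC-TPr 3 and blue in the other 3 libraries, while 4 of the 5 efflux and storage genes show the opposite colours.

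The remaining synthesis steps had nearly the same order of libraries as the 8 members. It was found in 5 of 6 other mevalonate and isoprenoid genes. The exception, Ggps1, which lengthens farnesyl to geranylgeranyl diphosphate, was lower in every library labelled MSC-TPr (40.2 to 52.9 CPM) than in every one labelled Ctl MSC (59.5 to 72.7 CPM), with a log2 fold change of −0.53 (SE 0.17, adjusted p = 0.231, edgeR). All 8 later sterol genes had the order of the members. Msmo1, which works beside Cyp51 in removing methyl groups, had the highest mean level of them, with 165, 66.0 and 70.7 CPM under the Ctl MSC label and 96.4, 325 and 239 CPM under the MSC-TPr label. Its log2 fold change was 1.13 (SE 0.537, adjusted p = 0.385, edgeR).

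Control, uptake and export genes were less alike. Of 8 genes listed under SREBP control, 2 had the order of the members and 3 the reverse. The list holds the SREBP genes Srebf1 and Srebf2 themselves, as well as Mylip. Mbtps1, a protease that cuts SREBPs, had the highest mean level (150, 235 and 235 CPM, then 217, 156 and 194 CPM). Srebf1 (67.3 to 93.5 CPM against 49.9 to 66.8 CPM) and Mylip, a ubiquitin ligase of sterol metabolism (11.5 to 15.7 CPM against 5.03 to 8.86 CPM), were lower in every library labelled MSC-TPr, with adjusted p of 0.4 and 0.238 (edgeR). Insig1, which retains SREBP in the endoplasmic reticulum, was picked after its values were seen. It reached 188, 59.9 and 62.7 CPM under the Ctl MSC label and 30.1, 128 and 124 CPM under the MSC-TPr label. In Insig1, MSC-TPr 1 lay below Ctl MSC 2 and 3, whereas in every member but Cyp51 it lay above at least 1 of them, and this rests on 1 library.

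Of 6 uptake and traffic genes tested, 3 had the order of the members and 2 the reverse. Npc2, which carries cholesterol out of lysosomes, was the most abundant in CPM (221, 264 and 286 CPM, then 352, 223 and 194 CPM), and Lipa, the lysosomal lipase that frees cholesterol from its esters, was at 111 to 130 CPM under the Ctl MSC label and 63.2 to 85.0 CPM under the MSC-TPr label (log2 fold change −0.70, SE 0.166, adjusted p = 0.151 by edgeR). None of 5 efflux and storage genes had the order of the members, and 4 had the reverse, among them Soat1, the cholesterol-esterifying enzyme (94.8, 195 and 194 CPM, then 184, 133 and 111 CPM). The exporter Abca1 did not overlap between labels, at 14.9 to 19.0 CPM against 5.32 to 11.1 CPM (log2 fold change −1.06, SE 0.309, adjusted p = 0.206, edgeR). Without the libraries numbered 1, edgeR called 5 of these 5 lower and DESeq2 called 4, where they called 19.4% and 16.6% of all genes tested lower.

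Side branches and fatty acid genes completed the list. Of 7 isoprenoid branch genes, 3 had the order of the members. Nus1, a dolichol synthase subunit, varied only 1.3-fold (184 to 239 CPM), its partner Dhdds was lower in every library labelled MSC-TPr (40.2 to 43.2 against 49.3 to 63.8 CPM, adjusted p = 0.236, edgeR), and Fnta, a subunit of the enzymes that prenylate proteins, was higher in every one (90.4 to 114 against 54.4 to 80.2 CPM, adjusted p = 0.239, edgeR). Of 9 fatty acid genes controlled by SREBP1, 7 had the order of the members, with Scd2, a desaturase, the highest in mean CPM (1480, 419 and 394 CPM, then 220, 1125 and 1683 CPM).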

How the data were processed

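RNA-seq counts of 6 libraries, 3 per label, were analysed with each library as a replicate and with groups and replicate numbers taken from the sample titles. Polyadenylated RNA was prepared with a stranded kit. The submitters' processing notes name CASAVA 1.8.2, Trimmomatic 0.35 and TopHat2 2.1.0, the authors aligned to mm10 and counted reads with Htseq-count, and the deposited counts are raw reads per gene without normalization. The strand setting of the counting is not given in the sources used here. Summary lines for reads on no gene (13.8% to 20.8% of reads listed) were left out. Of 23420 genes, 16807 had at least 1 read.

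Counts were tested in R 4.3.3 with edgeR 4.0.16 (TMM, filterByExpr, quasi-likelihood test, group as the only term, Benjamini-Hochberg adjustment over all 11974 genes tested). A gene was called at an adjusted p under 0.05 and an absolute log2 fold change of at least 0.5, the thresholds of the study. The standard error is the log2 fold change divided by the square root of F. DESeq2 1.42.0 was an alternative. Other alternatives were RLE and upper quartile scaling, no filter or at least 10 counts in every library, the replicate number as a block, a cell division covariate, leaving out each library, and leaving out both libraries numbered 1. DESeq2 without the libraries numbered 1 was added after seeing the data. Both tools were also run on simulated counts that lacked the clusters of libraries seen here, which checks the code only.

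The 8 genes, the lists, the covariate and the libraries left out were chosen with earlier results of these data known. Besides the members, genes of the pathway list were named if called, if the labels did not overlap or if highest in mean CPM in their role, along with the 5 genes most and least like the members, except that values of 2 listed genes are not reported here. Msmo1 and Adgre1 are listed under their older symbols Sc4mol and Emr1. Coordinates and exon lengths came from GENCODE M21, near copies from BLAST+ 2.17.0 (at least 90% identity over at least 200 bases) and promoter windows from RefSeq.

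Libraries sharing a number deviated from their group means in opposite ways, with correlations of −0.765, −0.594 and −0.604 across genes. Deviations cancel out within a label, so the values for numbers 2 and 3 depend on the libraries numbered 1. Whether the numbers pair the libraries cannot be told from these values. None was deposited in duplicate: the closest pair, Ctl MSC 2 and 3, gave a chi-square of 4.76 per gene, above the sampling noise of about 1.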

Additional observations from a re-analysis of the deposited data

How the results depend on the processing

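Scaling by RLE or upper quartile and dropping the filter on low counts left 0 of the 8 members called, with fold changes above 0. Requiring at least 10 counts in every library did the same, and moved the genes called lower from 48 to 29. DESeq2 over 6 libraries called 244 genes higher, 439 lower and 1 other sterol pathway gene. The replicate block, by numbers that may not pair the libraries, called 0 genes higher and 0 lower, and the members ranged from 0.41 to 1.91 (adjusted p 0.88 to 0.936). The cell division covariate called 564 genes higher, 880 lower and 6 other pathway genes, and turned Hmgcs1 to −0.28, Idi1 to −0.0053 and Cyp51 to −0.14.

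Without both libraries numbered 1, edgeR called 8 members, 35 other pathway genes, 2498 genes higher and 2356 lower, with log2 fold changes of 1.55 in Hmgcs1, 3.41 in Idi1, 2.32 in Fdps, 1.15 in Fdft1, 1.76 in Sqle, 0.93 in Lss, 2.46 in Cyp51 and 1.06 in Dhcr7 (median 1.66). DESeq2 over the same 4 libraries, chosen after seeing the data, called 8 members, 34 other pathway genes, 2412 genes higher and 2153 lower, with 1.55, 3.42, 2.32, 1.16, 1.76, 0.93, 2.47 and 1.07 in the same order (median 1.66).

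Leaving out 1 library at a time called 0 members and 0 other pathway genes, 0 to 11 genes higher (11 without MSC-TPr 1) and 0 to 105 lower (105 without Ctl MSC 1). Fold changes ranged from −0.16 to 1.19 in Hmgcs1, 0.21 to 2.91 in Idi1, 0.49 to 1.89 in Fdps, 0.19 to 0.87 in Fdft1, 0.40 to 1.41 in Sqle, 0.26 to 0.69 in Lss, 0.23 to 1.99 in Cyp51 and 0.033 to 0.87 in Dhcr7 (median of the 8, 0.22 to 1.30), each highest without Ctl MSC 1. The sign of Hmgcs1 turned without Ctl MSC 2 (−0.15), Ctl MSC 3 (−0.16) or MSC-TPr 3 (−0.16). Over the scalings, filters, block and single libraries left out, edgeR called 0% to 0.886% of all genes. The cause of these differences was not tested. With 3 libraries a group that spread this widely, a change between labels smaller than the intervals given could not be detected. Depth limited the members little, since each had at least 122 reads in every library.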
